A study of Homo sapiens with 6 samples.

Results

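Androgen-induced genes outside the kallikrein cluster are genes whose transcripts rise when prostate cells are exposed to androgen. They were followed in LNCaP, an established human prostate cancer cell line that depends on androgen. The members were the 34 listed genes, taken as the rows whose transcript ID belongs to one of them in GENCODE release 29. A row was found for 31 of the 34 among 22279 transcript IDs, and all 31 had enough counts to be tested. STEAP4, ACSL3 and SORD were not analysed here.

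The tested libraries were 3 of LNCaP cells with a hairpin against RB (shRB), set against 3 of LNCaP cells with a control hairpin (shCON), numbered 1 to 3 in each group. All 6 were harvested after 72 h of CDT, which the series describes as hormone-deficient, so both groups lacked hormone and no library with hormone enters the comparison. A rise or a fall below is therefore shRB against shCON within hormone lack, not a response to hormone lack itself. The labels give a single hairpin label per group and do not say whether the cells were clones or the replicates separate cultures, and p-values therefore reflect only library-to-library spread, which may be technical.

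Androgens are steroid hormones that switch on a gene program in luminal prostate cells, mostly through enhancers far from start sites, where pioneer factors such as FOXA1 open chromatin and coactivators are recruited. The genes induced include those of secreted and surface proteins, lipid enzymes, transport proteins and transcription factors. RB binds E2F factors and holds back cell cycle genes.

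Total counts per library ranged from 9780579 to 10898768 in shRB and from 6115310 to 20091488 in shCON. RB1 mRNA lay between 3.82 and 5.83 CPM (counts scaled to a common library total) in shRB and between 52.7 and 56.6 CPM in shCON, so each library matched its label. Luminal prostate markers summed to 4477 to 4967 CPM in shRB and 4919.9 to 5122 CPM in shCON, with all 8 detected. The 5 basal markers in the table summed to at most 9.65 CPM in shRB and 9.08 CPM in shCON, with KRT5 and TP63 at 10 counts or fewer over all libraries. The 6 leukocyte markers summed to at most 5.31 CPM in shRB and 7.27 CPM in shCON, with PTPRC, CD3E and CSF1R at 10 counts or fewer. The 6 stromal markers summed to 22.0 to 26.0 CPM in shRB and 42.0 to 49.99 CPM in shCON. COL1A1 gave 13.5 ± 1.77 CPM in shRB and 17.5 ± 1.69 CPM in shCON (SD, n = 3 each). Vimentin (VIM), also found in some epithelial cells, gave 8.48 ± 2.09 CPM in shRB and 25.3 ± 4.15 CPM in shCON. COL3A1 and PDGFRB held 48 and 16 counts over the shRB libraries and 80 and 19 over the shCON libraries. COL1A2 and DCN were at 10 counts or fewer. The part of these markers in the results was not tested. The library shRB 2 differed from shRB 1 and shRB 3 by base composition. Across 11674 genes, which are not independent replicates, its deviation from the shRB mean tracked GC content with a Spearman coefficient of 0.69. The coefficient was −0.50 in shRB 1 and −0.54 in shRB 3. The same value was −0.51 in shCON 1, 0.52 in shCON 2 and −0.09 in shCON 3. Deviations within a group cancel for each gene, so the coefficients of a group depend on each other, and they give no size of the difference. Among the members, shRB 2 was the lowest shRB library for 16 of 31, and those 16 had a median transcript GC content of 41.2%.

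The members differed between shRB and shCON in both directions, and RB loss cannot be told apart from other differences between these lines. Of the 31 tested, 6 rose in shRB (SLC45A3, PLPP1, SLC43A1, HOMER2, FKBP5 and LRIG1), 8 fell (MAF, HERC3, TPD52, ZBTB10, ALDH1A3, STEAP2, RAB3B and NDRG1) and 17 did not pass (edgeR quasi-likelihood test, Benjamini-Hochberg adjusted p under 0.05 over all genes). Across all 11712 tested genes, 12.8% were called higher and 12.5% called lower in shRB, beside 19.4% and 25.8% of the members. The median log2 fold change of the members was −0.02, and that of all tested genes −0.01. The members were chosen with earlier results of these data known, and these shares are a description. In bulk RNA, fewer cells that express a gene and less RNA per cell cannot be told apart.

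All 6 members that rose and all 8 that fell had shRB libraries entirely outside the shCON range, as did 2 of the 17 that did not pass (TSC22D3 above, ELL2 below). The called members were picked by the same comparison, so their lack of overlap is not separate evidence. Among all 31 members, called or not, those outside were the 6 and TSC22D3 above, and the 8 and ELL2 below. Over all tested genes, called or not, 21.0% had every shRB library above every shCON library and 20.2% had every one below. Most shifts were under 2-fold. Rises ran from 0.43 to 1.00 on the log2 scale, and falls from −0.29 to −1.90. MAF alone among the 14 called members exceeded a 2-fold fitted change, while 10.5% of all genes called higher and 19.5% of those called lower were at least 2-fold changed. The median absolute log2 fold change was 0.69 in the members that rose, beside 0.43 in all genes called higher. It was 0.42 in the members that fell, beside 0.55 in all genes called lower.

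**Figure D1:**
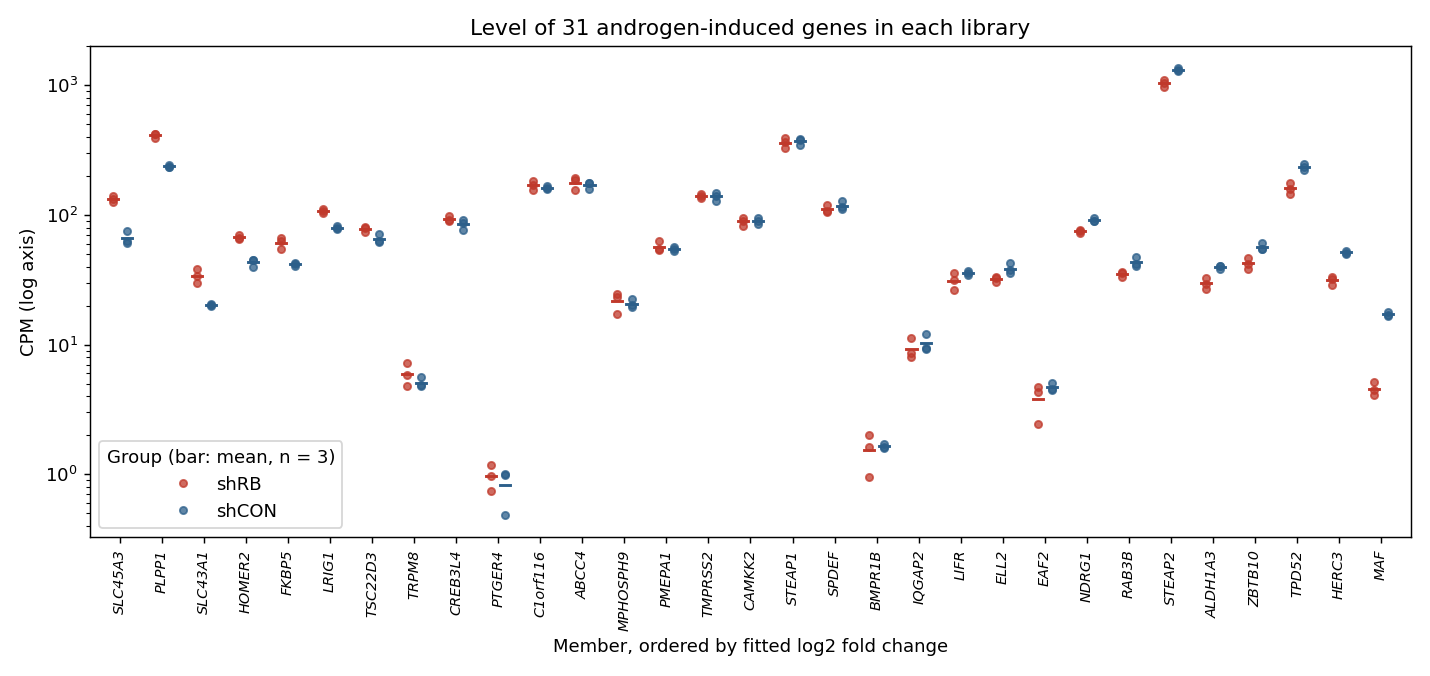
Level of each of the 31 androgen-induced genes in every library, in CPM on a log axis, ordered from the highest to the lowest fitted log2 fold change; points are libraries (shRB left, shCON right for each gene) and bars are means of 3. The groups stand apart at both ends, from SLC45A3 (133 CPM in shRB, 66.7 CPM in shCON) to MAF (4.57 CPM in shRB, 17.1 CPM in shCON), and overlap in the middle.

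Promoter sequences are shown for the largest rise and fall, the adjacent STEAP genes, of which STEAP2 was called, and FKBP5. They are from RefSeq (build GRCh38.p14), which held a window for 25 of the 31 members, and the window whose start site was nearest to the counted transcript's was used. Each line gives the 250 bases before the start site, 5′ to 3′ on the gene's strand. Capitals mark every match to a searched motif, on either strand: the TATA box (letters TATAAA), the cyclic AMP element (letters TGACGTCA), the GC box (letters GGGCGG) and the E2F motif in the versions TTTCCCGC, TTTCGCGC, TTTGCCGC and TTTGGCGC. The letters AGAACA at the core of a steroid hormone response element, the full site (those letters, 3 bases of any kind and their reverse complement) and the forkhead letters TGTTTAC were also searched.
SLC45A3, GRCh38.p14 chr1:205680510-205680759, minus strand: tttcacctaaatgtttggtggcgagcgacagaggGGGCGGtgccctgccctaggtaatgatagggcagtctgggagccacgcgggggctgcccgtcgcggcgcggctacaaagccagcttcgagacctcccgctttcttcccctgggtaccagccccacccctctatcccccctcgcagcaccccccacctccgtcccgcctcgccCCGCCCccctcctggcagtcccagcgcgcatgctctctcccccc
FKBP5, GRCh38.p14 chr6:35688916-35689165, minus strand: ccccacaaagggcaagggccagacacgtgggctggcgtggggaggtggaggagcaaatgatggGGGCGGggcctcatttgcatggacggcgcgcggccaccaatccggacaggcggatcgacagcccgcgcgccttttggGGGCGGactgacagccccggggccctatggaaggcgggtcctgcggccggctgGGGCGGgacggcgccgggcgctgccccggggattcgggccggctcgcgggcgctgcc
STEAP1, GRCh38.p14 chr7:90154219-90154468, plus strand: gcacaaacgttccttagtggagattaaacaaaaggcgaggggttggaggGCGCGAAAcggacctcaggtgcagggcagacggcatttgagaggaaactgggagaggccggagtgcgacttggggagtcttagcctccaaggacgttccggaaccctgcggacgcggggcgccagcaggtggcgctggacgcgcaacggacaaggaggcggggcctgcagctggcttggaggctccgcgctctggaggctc
STEAP2, GRCh38.p14 chr7:90211490-90211739, plus strand: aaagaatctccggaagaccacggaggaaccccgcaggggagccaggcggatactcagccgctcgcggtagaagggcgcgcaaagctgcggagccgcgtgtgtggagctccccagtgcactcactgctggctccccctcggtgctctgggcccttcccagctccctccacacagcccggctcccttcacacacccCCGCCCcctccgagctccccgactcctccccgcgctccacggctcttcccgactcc
MAF, GRCh38.p14 chr16:79600738-79600987, minus strand: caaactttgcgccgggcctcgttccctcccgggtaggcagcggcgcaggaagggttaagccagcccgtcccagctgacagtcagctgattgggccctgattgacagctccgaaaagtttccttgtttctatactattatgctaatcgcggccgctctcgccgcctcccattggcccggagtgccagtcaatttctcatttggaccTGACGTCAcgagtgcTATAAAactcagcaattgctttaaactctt

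The MAF window held a TATA box starting 30 bases before the start site and a cyclic AMP element starting 45 bases before it, and no GC box. Among the 25 member windows, 3 held TATAAA (10.7% of 35116 windows of all genes) and 1, that of MAF, held TGACGTCA (1.65% of all windows). GC boxes stood in 16 of 25 windows (42.6% of all windows), with 3 in FKBP5, 2 in SLC45A3 and 1 in STEAP2. An E2F match stood in the windows of STEAP1 and CAMKK2 (2.79% of all windows), both of which overlapped between groups. The start site of the CAMKK2 window lay 1599 bases from that of the counted transcript, and that of STEAP1 94 bases. The letters AGAACA stood in 0 of 25 windows (12.4% of all windows), the full site in 0 of 25 (0.00285% of all windows), and the forkhead letters in 1, that of TSC22D3 (2.98% of all windows). A match is a run of letters and not a measured binding site.

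Among the 5 surface protease, transporter and channel genes, 2 rose (40.0%) and 0 fell. Over all tested genes, 12.8% were called higher and 12.5% lower, and 5 genes are too few to describe the class. SLC45A3 (ENST00000367145, chromosome 1) encodes prostein, a prostate-restricted membrane transporter. It had 125, 140.4 and 133 CPM in shRB 1 to 3, against 61.2, 75.7 and 63.2 CPM in shCON 1 to 3. Every shRB library was far above the highest shCON library, and the log2 fold change was 1.00 ± 0.09 (SE; edgeR adjusted p = 5.2e-06), the largest rise among the members. SLC43A1 (ENST00000278426, chromosome 11), a carrier of large neutral amino acids, had 29.8, 38.5 and 33.8 CPM in shRB and 20.7, 20.2 and 19.9 CPM in shCON. Its shCON libraries were nearly equal and the shRB libraries more spread, with a log2 fold change of 0.74 ± 0.11 (edgeR adjusted p = 0.00036).

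TMPRSS2 (ENST00000332149, chromosome 21), the serine protease gene whose androgen-driven promoter is often fused to ETS genes in prostate cancer, did not pass. It had 135, 139 and 146 CPM in shRB and 140.0, 148 and 129 CPM in shCON. The groups overlapped, and the approximate 95% interval of the log2 fold change ran from −0.16 to 0.17. Its chromosome stood low in shRB: the 122 tested genes of chromosome 21 had a median log2 fold change of −0.38, and of the 20 tested genes nearest to TMPRSS2, 12 fell and 0 rose. Measured from the chromosome median, the log2 fold change of TMPRSS2 was 0.39. The ABC transporter gene ABCC4, which exports cyclic nucleotides and prostaglandins, was at 177 ± 18.8 CPM in shRB and 170.2 ± 10.7 CPM in shCON (SD, n = 3 each) with overlapping libraries. The cold-activated channel gene TRPM8 was at 5.92 ± 1.21 CPM in shRB and 5.11 ± 0.43 CPM in shCON and also overlapped, although 11 of its 20 nearest tested genes rose (median log2 fold change 0.51). Shorter exon overlaps with an opposite-strand gene were found for TRPM8 (119 bases), MPHOSPH9 (37 bases) and ELL2 (36 bases).

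The metalloreductases STEAP1 and STEAP2 belong to a family of membrane proteins named for their abundance in prostate epithelium, in which STEAP2 reduces iron and copper and STEAP1 lacks the cofactor-binding domain of its relatives. Their genes are next to each other on chromosome 7 with 0 tested genes between them, and only STEAP2 passed the test. STEAP2 (ENST00000287908) fell, with 1047, 972 and 1092 CPM in shRB against 1352, 1289 and 1315 CPM in shCON (log2 fold change −0.35 ± 0.07, edgeR adjusted p = 0.0037). STEAP1 (ENST00000297205) had 391, 326 and 368 CPM in shRB and 386, 345 and 376 CPM in shCON, with a log2 fold change of −0.03 ± 0.08 (edgeR adjusted p = 0.82). The shRB libraries of STEAP2 were all below the shCON libraries, whereas those of STEAP1 overlapped. Per transcript length, the STEAP2 level was 0.549 ± 0.033 of the STEAP1 level in shRB and 0.683 ± 0.026 in shCON (SD, n = 3 each). The ratios did not overlap between groups, and the two-sided exact permutation p of 0.1 is the smallest that 3 against 3 libraries allow.

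Of the 9 receptors and signalling proteins, LRIG1 and HOMER2 rose (22.2%), NDRG1 fell (11.1%) and 6 did not pass. The shares over all tested genes were 12.8% higher and 12.5% lower. LRIG1 (ENST00000273261, chromosome 3), a transmembrane protein that promotes degradation of ERBB receptors, had 103, 108 and 112 CPM in shRB and 81.8, 79.0 and 77.9 CPM in shCON. All shRB libraries were above the shCON libraries (log2 fold change 0.43 ± 0.07, edgeR adjusted p = 0.00091). Its exons share 373 bases with SLC25A26 on the opposite strand (log2 fold change 0.31 ± 0.11, edgeR adjusted p = 0.057), so its count is uncertain. The 661 tested genes of chromosome 3 had a median log2 fold change of 0.15, whereas the 20 tested genes nearest to LRIG1 had a median of −0.15, with 3 higher and 1 lower. HOMER2 (ENST00000304231, chromosome 15), a scaffold of glutamate and calcium signalling, had 66.7, 69.8 and 64.8 CPM in shRB and 39.4, 45.1 and 45.3 CPM in shCON. The libraries of each group lay close together, with a log2 fold change of 0.64 ± 0.09 (edgeR adjusted p = 0.00017).

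NDRG1 (ENST00000414097, chromosome 8), a stress- and differentiation-linked gene also induced by hypoxia, had 72.9, 76.9 and 75.6 CPM in shRB and 89.7, 95.3 and 90.02 CPM in shCON. The fall was small but without overlap (log2 fold change −0.29 ± 0.08, edgeR adjusted p = 0.013). It no longer passed without shRB 1 (edgeR adjusted p = 0.058), without shCON 2 (adjusted p = 0.062) or without shCON 3 (adjusted p = 0.051). PMEPA1, an inhibitor of TGF-beta signalling, was at 57.1 ± 4.72 CPM in shRB and 54.8 ± 2.00 CPM in shCON, and CAMKK2, the kinase upstream of AMPK, at 89.1 ± 6.50 CPM in shRB and 89.8 ± 4.78 CPM in shCON (SD, n = 3 each). Both overlapped, with 95% intervals of −0.13 to 0.25 and −0.19 to 0.16 on the log2 scale. The leukaemia inhibitory factor receptor gene LIFR (31.01 ± 4.66 CPM in shRB, 35.7 ± 1.30 CPM in shCON) and the Rac and Cdc42 binding scaffold IQGAP2 (9.34 ± 1.74 CPM in shRB, 10.3 ± 1.63 CPM in shCON) did not pass. The prostaglandin E receptor gene PTGER4 and the bone morphogenetic protein receptor gene BMPR1B were near the detection limit. They held 30 and 48 counts over the 3 shRB libraries and 33 and 61 counts over the 3 shCON libraries. Their log2 fold changes had wide intervals, of −0.64 to 0.87 for PTGER4 and −0.72 to 0.52 for BMPR1B, so a change of the size of most called members was not detectable at this depth.

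**Figure D2:**
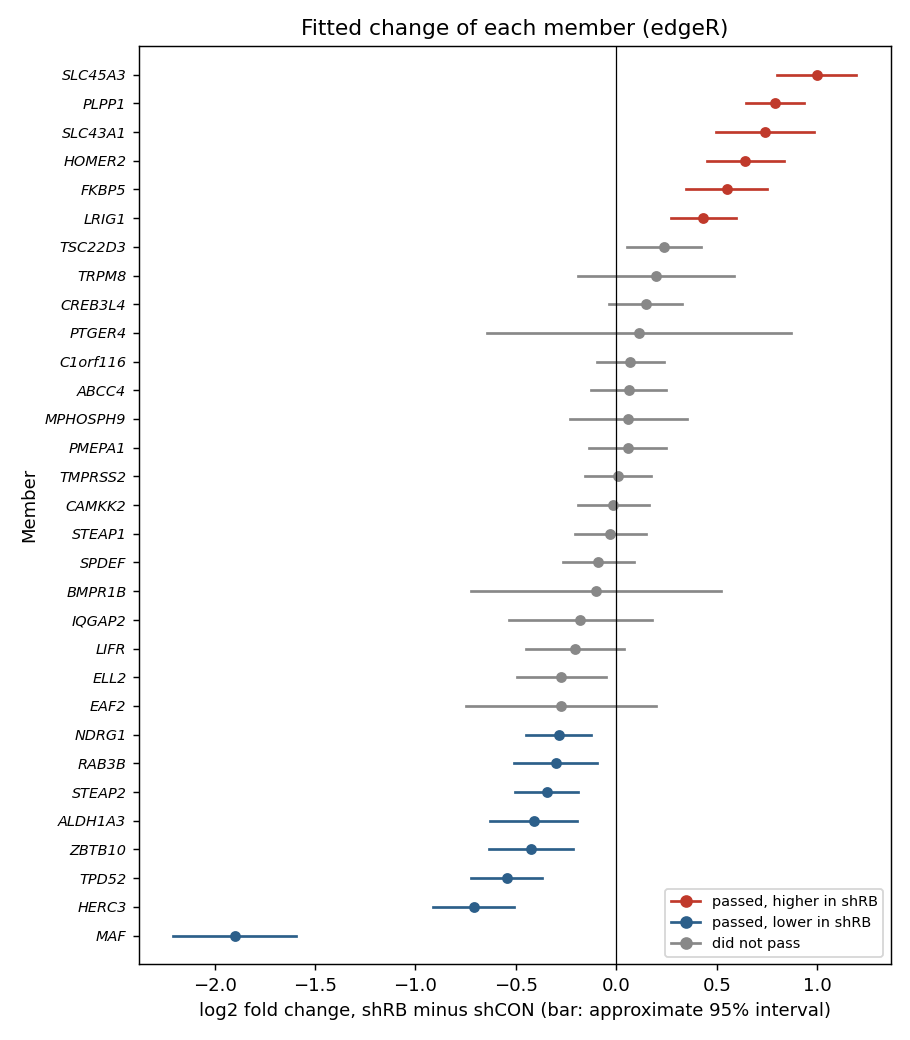
Fitted log2 fold change of each androgen-induced gene, shRB minus shCON, as a point with its approximate 95% interval; red passed as higher in shRB, blue as lower, and grey did not pass. Intervals are narrow for abundant genes such as PLPP1 (0.64 to 0.94) and wide for PTGER4 (−0.64 to 0.87).

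Of the 7 transcription and elongation factors among the members, 0 passed as higher and 2 fell (28.6%). Over all tested genes, 12.8% were called higher and 12.5% lower, and 7 genes are too few to describe the class. MAF (ENST00000393350, chromosome 16) encodes a basic leucine zipper transcription factor and had the largest change of any member. It had 5.19, 4.46 and 4.06 CPM in shRB against 16.8, 18.0 and 16.5 CPM in shCON. The libraries within each group were close, and the level in shRB was 3.73-fold lower by the fit (log2 fold change −1.90 ± 0.14, edgeR adjusted p = 7.4e-07). The 20 nearest tested genes had a median log2 fold change of 0.04, with 2 higher and 3 lower.

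ZBTB10 (ENST00000430430, chromosome 8), a zinc finger repressor, had 42.0, 38.5 and 46.5 CPM in shRB and 61.0, 54.5 and 54.2 CPM in shCON (log2 fold change −0.42 ± 0.10, edgeR adjusted p = 0.0062). All shRB libraries were below shCON, and the call was lost without shCON 1 (edgeR adjusted p = 0.051). Its exons share 451 bases with the opposite-strand gene AC009812.1, not analysed here, so its count is uncertain. ELL2, a subunit of the super elongation complex, had 33.4, 30.3 and 32.6 CPM in shRB and 42.8, 35.5 and 37.4 CPM in shCON, without overlap but short of the threshold (log2 fold change −0.27 ± 0.10, edgeR adjusted p = 0.066). EAF2, whose protein binds ELL proteins and stimulates elongation, was low, at 3.82 ± 1.21 CPM in shRB and 4.69 ± 0.30 CPM in shCON (SD, n = 3 each), with overlapping libraries. TSC22D3, the glucocorticoid-induced leucine zipper gene, had 80.04, 73.6 and 79.3 CPM in shRB and 71.4, 61.9 and 63.4 CPM in shCON. Its shRB libraries were all above shCON, and the log2 fold change of 0.24 ± 0.09 missed the threshold (edgeR adjusted p = 0.055). Without shRB 2 it passed, at 0.28 (adjusted p = 0.0042). The ETS factor gene SPDEF (111 ± 7.24 CPM in shRB, 118 ± 8.63 CPM in shCON) and the membrane-bound factor gene CREB3L4 (93.5 ± 4.05 CPM in shRB, 84.8 ± 7.48 CPM in shCON) overlapped between groups. Of the 20 tested genes nearest to CREB3L4, 16 rose and 0 fell. Its exons overlap those of JTB and SLC39A1 on the opposite strand, which were called higher (log2 fold changes 0.45 and 0.29), so its count may include their reads.

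The enzymes split. PLPP1 (ENST00000307259, chromosome 5), a membrane phosphatase of lysophosphatidic and phosphatidic acid, had 393, 418 and 419 CPM in shRB and 241, 234 and 235 CPM in shCON. The groups were far apart relative to their spread (log2 fold change 0.79 ± 0.07, edgeR adjusted p = 2.8e-06). A stretch of 450 bases of its exons overlaps an exon of MTREX on the opposite strand, which also rose (log2 fold change 0.50 ± 0.07), so reads may be shared and the value of PLPP1 is uncertain. ALDH1A3 (ENST00000329841, chromosome 15), which makes retinoic acid from retinaldehyde, had 32.8, 26.9 and 29.4 CPM in shRB and 40.2, 40.2 and 38.1 CPM in shCON. All shRB libraries were below shCON (log2 fold change −0.41 ± 0.10, edgeR adjusted p = 0.0087). Its exons share 1280 bases with the opposite-strand gene AC015712.2 and 63 bases with AC015712.5 on the same strand, which were not analysed here, so its count is uncertain.

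FKBP5 (ENST00000357266, chromosome 6), a co-chaperone of steroid receptors that is induced by androgens and glucocorticoids, had 62.6, 54.3 and 66.1 CPM in shRB and 42.7, 41.6 and 40.7 CPM in shCON. The shCON libraries were nearly equal, and every shRB library was higher (log2 fold change 0.55 ± 0.09, edgeR adjusted p = 0.0009). HERC3 (ENST00000402738, chromosome 4), a HECT-type ubiquitin ligase gene, had 33.4, 28.8 and 32.2 CPM in shRB and 53.2, 50.0 and 51.1 CPM in shCON, a fall of 0.71 ± 0.09 on the log2 scale without overlap (edgeR adjusted p = 0.00011). Of its 20 nearest tested genes, 8 fell and 0 rose, with a median of −0.26. Its exons share 255 bases with AC098582.1 on the same strand, which was not analysed here, so its count is uncertain. RAB3B (ENST00000371655, chromosome 1), a small GTPase of regulated secretion, had 33.5, 36.3 and 35.5 CPM in shRB and 40.5, 47.4 and 42.0 CPM in shCON. It was the weakest call (log2 fold change −0.30 ± 0.10, edgeR adjusted p = 0.035), and it was lost under DESeq2 and when any library other than shRB 2 was left out.

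TPD52 (ENST00000379096, chromosome 8), a vesicle trafficking gene often amplified in prostate cancer, had 159.7, 146 and 176 CPM in shRB and 247, 222 and 234 CPM in shCON, a fall of 0.55 ± 0.08 on the log2 scale without overlap (edgeR adjusted p = 0.00033). Its exons share 149 bases with AC036214.3 on the same strand, also not analysed here, so its count is uncertain. TPD52 and ZBTB10 are neighbours on chromosome 8 with 0 tested genes between them, and both fell, while the 20 tested genes nearest to the pair had a median log2 fold change of 0.05, with 2 higher and 2 lower. The centrosomal phosphoprotein gene MPHOSPH9 (21.6 ± 3.90 CPM in shRB, 20.6 ± 1.499 CPM in shCON) and C1orf116, also called SARG for its specific regulation by androgen (169.6 ± 14.1 CPM in shRB, 162 ± 4.32 CPM in shCON), did not pass (SD, n = 3 each).

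**Figure D3:**
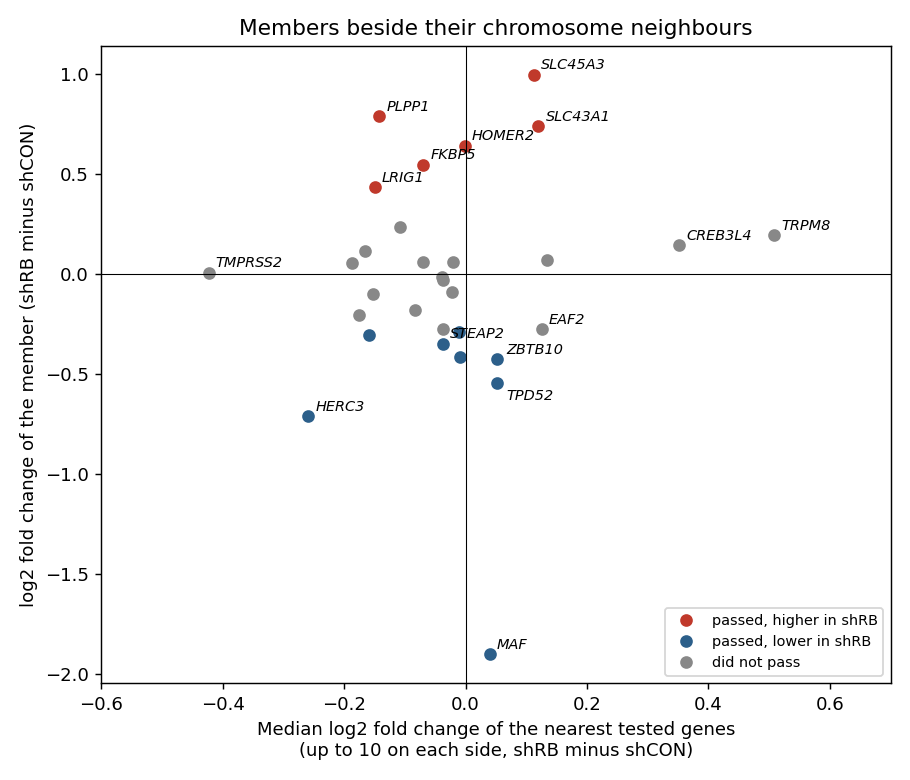
Log2 fold change of each androgen-induced gene (vertical axis) against the median log2 fold change of its nearest tested genes, up to 10 on each side with the members left out (horizontal axis), shRB minus shCON for both. TMPRSS2 lies level at 0.01 beside neighbours at −0.42, HERC3 fell beside neighbours at −0.26, and the largest rise and fall, SLC45A3 and MAF, have neighbours at 0.11 and 0.04.

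The order of the members by level per transcript length differed at the top. In shRB, STEAP1 came first at 275.5 ± 25.2 CPM per kilobase, PLPP1 second at 257 ± 9.17 then STEAP2 at 151 ± 8.79 (SD, n = 3), and the gap between STEAP1 and PLPP1 was smaller than the spread of STEAP1. In shCON, STEAP1 came first at 281 ± 16.1 CPM per kilobase, STEAP2 second at 192 ± 4.64 then PLPP1 at 148 ± 2.37, all farther apart than their spread. The PLPP1 level was 1.71 ± 0.13 times that of STEAP2 in shRB and 0.773 ± 0.008 times in shCON per length (two-sided exact permutation p = 0.1, the smallest possible), with PLPP1 counts uncertain through MTREX as above. Every shRB library was above shCON for PLPP1 and below it for STEAP2. The ratios therefore had to separate, and this p adds no support. By count, STEAP2 made up 27.8% to 29.2% of the summed CPM of the members in shRB and 35.1% to 35.7% in shCON. The summed level of the 31 members was 3497 to 3735 CPM in shRB and 3669 to 3786 CPM in shCON, and overlapped.

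Transcript composition is given as a description. Median GC content was 54.1% in the 6 that rose, 44.0% in the 8 that fell and 43.8% in the 17 others, and the ranges overlapped (43.5% to 58.9% for those that rose, 36.9% to 58.0% for those that fell). Median transcript length was 2970 bases in those that rose and 5679 bases in those that fell. With an offset for GC content in each library, all 14 calls were kept and TSC22D3 (0.20, edgeR adjusted p = 0.035) and ELL2 (−0.21, adjusted p = 0.038) were added. Sizes moved in both directions. The log2 fold change of STEAP2 went from −0.35 to −0.24 (edgeR adjusted p = 0.01), and that of NDRG1 from −0.29 to −0.34.

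Of 13 tested steroid receptor and cofactor genes, 4 fell, 0 rose and 9 were not called (median log2 fold change −0.12). Over all tested genes, 12.5% were called lower and 12.8% higher. The coactivator genes NCOA3 (22.1 ± 1.42 CPM in shRB, 34.1 ± 1.04 CPM in shCON), NCOA1 (43.2 ± 6.30 CPM in shRB, 66.1 ± 1.69 CPM in shCON) and NCOA2 (80.5 ± 13.1 CPM in shRB, 114 ± 9.999 CPM in shCON) fell (SD, n = 3 each), by 0.62, 0.61 and 0.50 on the log2 scale (edgeR adjusted p of at most 0.0053). The progesterone receptor gene PGR fell to a few reads, with 5 counts over the shRB libraries and 69 over the shCON libraries (fitted log2 fold change −3.44 ± 0.45, edgeR adjusted p = 0.0001). The glucocorticoid receptor gene NR3C1 had 12 counts over the shRB libraries and 44 over the shCON libraries and was not tested.

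Among 54 other tested androgen-responsive genes, 12 fell (22.2%), 9 rose (16.7%) and 33 were not called. Shares over all tested genes were 12.5% lower and 12.8% higher. The median log2 fold change of the 54 was 0.05. The smallest p-values were those of SAT1, which acetylates spermidine and spermine (63.6 ± 1.36 CPM in shRB, 142 ± 2.45 CPM in shCON), the secreted protease gene ADAMTS1 on chromosome 21 (185 ± 8.82 CPM in shRB, 373 ± 29.6 CPM in shCON) and the lipid hydrolase gene ABHD2 (527 ± 22.3 CPM in shRB, 311 ± 10.1 CPM in shCON; SD, n = 3 each, edgeR adjusted p of at most 5.1e-06).

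**Figure D4:**
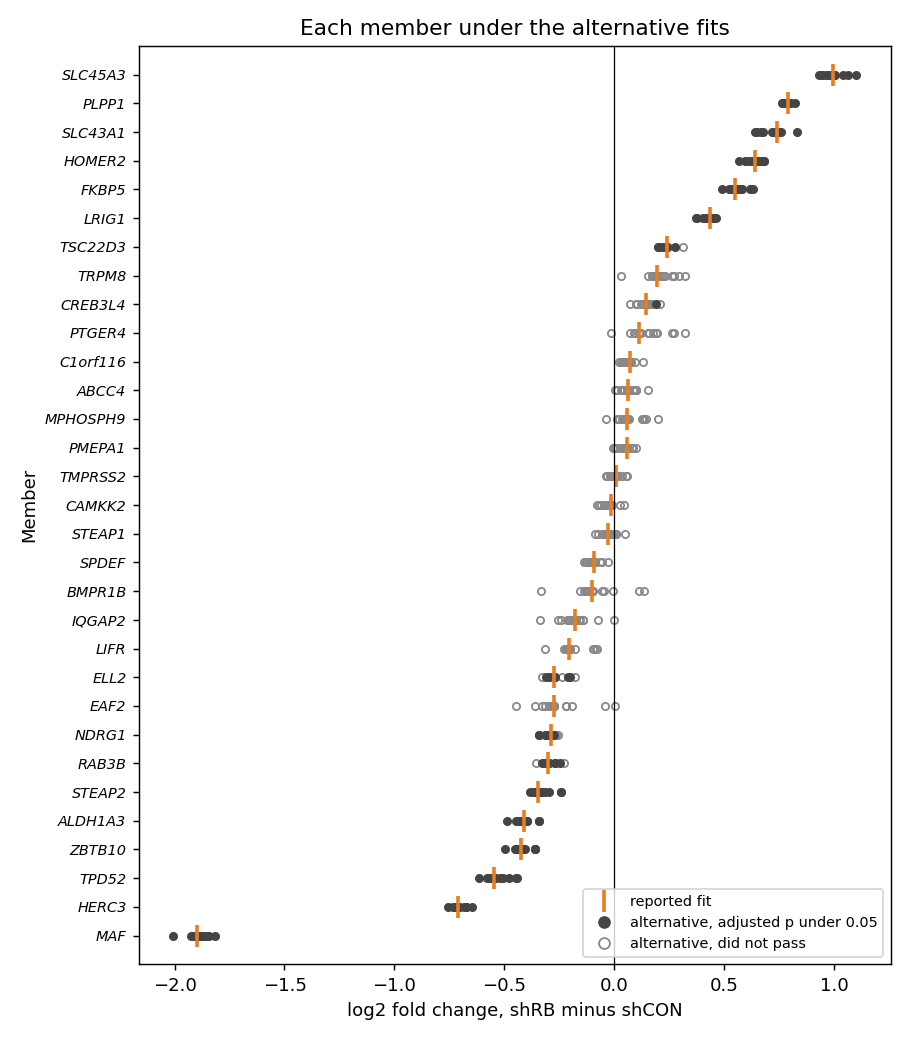
Log2 fold change of each androgen-induced gene, shRB minus shCON, in the reported fit (orange bar) and in the alternative fits (filled points passed an adjusted p under 0.05, open points did not). The 6 members that rose passed in every alternative shown, whereas RAB3B and NDRG1 lost their calls in some and TSC22D3 and ELL2 gained one in others.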

How the data were processed

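RNA sequencing counts of 6 LNCaP libraries (3 shRB, 3 shCON) were used. The authors deposited raw read counts, a whole number per transcript ID and library, and per the labels libraries were made with a TruSeq RNA kit from total RNA. The submitters' processing notes list the tools STAR, HOMER and edgeR and the build hg19. For annotation and strandedness nothing is stated, so overlapping genes may share reads. GENCODE release 29 describes another build and gave only names, gene order, length, GC content and exon overlap. It matched 22182 of 22279 IDs, and the 97 others held 0.377% of the counts.

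Counts were tested with edgeR 4.0.16 (R 4.3.3): filterByExpr (minimum count 10, minimum total 15), TMM normalization, glmQLFit and glmQLFTest on group, Benjamini-Hochberg adjustment over 11712 genes, threshold 0.05. CPM used TMM-adjusted library totals. Standard errors are the log2 fold change divided by the square root of F, and 95% intervals from them are approximate. The procedure was tested on simulated data. Alternatives used DESeq2 1.42.0, limma 3.58.1 (voom), other normalizations and filters, a GC offset, the replicate number as a block, a threshold of 0.01 and each library left out; leaving out shRB 2 and shCON 2 together was added after seeing the data. Named genes were all members, RB1, the 3 smallest p-values of each other list and called paralogs; NCOA2, NR3C1 and markers at low counts were named after their values were seen, and so were JTB, SLC39A1, SLC25A26 and MTREX for their overlap. Some genes of these lists are not reported here. Members and lists were chosen with earlier results of these data known.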

Additional observations from a re-analysis of the deposited data

How the results depend on the processing

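Across the alternative fits, the 6 members that rose kept their call in each one, as did 5 of the 8 that fell (MAF, HERC3, TPD52, ALDH1A3 and STEAP2). RAB3B, NDRG1 and ZBTB10 lost theirs in 7, 4 and 1 alternatives, always with the same sign. The counts of members were 6 to 8 higher and 6 to 9 lower, and their median stayed between −0.05 and 0.02 with each library left out. Counts over all genes moved more. The 1499 higher and 1459 lower genes became 2289 and 2286 with the GC offset and 787 and 793 at a threshold of 0.01, and with 1 library left out 863 to 2074 and 912 to 1956 (863 and 912 without shCON 1, 969 and 964 without shCON 3, 2074 and 1956 without shRB 2). The replicate numbers did not pair all libraries: same-numbered shRB and shCON libraries had correlations of deviations of 0.24, 0.35 and −0.0003. The value of 0.35, for shRB 2 with shCON 2, was the highest of any such pair. Both of these libraries tracked GC content in the same direction (0.69 and 0.52). In contrast, shRB 3 correlated better with shCON 1 (0.27) than with shCON 3. Whether shRB 2 and shCON 2 were handled together was not tested. With the replicate block there were 2203 higher and 2294 lower genes, and with the replicate block and the GC offset 2444 and 2434, with 7 members higher and 9 lower in both. With shRB 2 and shCON 2 both left out, a choice made after seeing the data, 2169 genes were higher and 2178 lower, and 8 members were higher and 9 lower. Signs turned only in members that did not pass. TMPRSS2 was −0.0164 with upper quartile factors, −0.00798 with library totals only, −0.0337 with the GC offset, −0.0353 with the replicate block and GC offset, and −0.0313 to 0.0581 with 1 library left out. STEAP1 was 0.00939 with the GC offset, 0.00998 with the replicate block and GC offset, and −0.0887 to 0.0473 with 1 library left out. PMEPA1 was −0.00138 with the GC offset and −0.0053 to 0.10 with 1 library left out. With 1 library left out the ranges were −0.0617 to 0.043 for CAMKK2, −0.0375 to 0.198 for MPHOSPH9, −0.0161 to 0.272 for PTGER4 (which did not pass the filter on low counts without shRB 1) and −0.335 to 0.137 for BMPR1B. Without shRB 2 and shCON 2, EAF2 was 0.00544 and BMPR1B 0.111. The cause was not tested. Each member had a single ID, so summing IDs changed nothing. Depth limits PTGER4 and BMPR1B, at 63 and 109 counts over all libraries.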

Other observations

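Relatives of the members were compared as a list of 46 paralogs in the table, of which 37 were tested: 7 rose, 2 fell and 28 did not pass (18.9% and 5.41%, beside 12.8% and 12.5% of all tested genes; median log2 fold change 0.02). The metalloreductase gene STEAP3 had 39.7, 42.8 and 36.0 CPM in shRB and 25.0, 27.9 and 22.7 CPM in shCON and rose by 0.64 ± 0.11 on the log2 scale (edgeR adjusted p = 0.00081), while its relative STEAP2 fell. CAMKK1 rose (31.1 ± 1.71 CPM in shRB, 21.1 ± 1.31 CPM in shCON) and CAMKK2 did not pass. IQGAP3, a scaffold found mainly in proliferating cells, rose (31.3 ± 4.15 CPM in shRB, 18.2 ± 1.64 CPM in shCON) and IQGAP2 did not pass. Differences between relatives were not tested. The falls were in ACSL4, a long-chain acyl-CoA synthetase gene for arachidonate (2.88 ± 1.44 CPM in shRB, 12.5 ± 1.85 CPM in shCON, edgeR adjusted p = 5e-05), and the type II receptor gene BMPR2 (144 ± 19.4 CPM in shRB, 222 ± 11.5 CPM in shCON, adjusted p = 0.00034; SD, n = 3 each). The other paralogs that rose were TRPM4, NDRG3, PLPP2 and IL6R, by 0.35, 0.21, 0.25 and 0.41 on the log2 scale.

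FKBP5 and TSC22D3 also respond to glucocorticoids. Of 8 other tested glucocorticoid targets, 1 rose (12.5%), 2 fell (25.0%) and 5 did not pass, beside 12.8% higher and 12.5% lower of all tested genes. So few genes do not describe the class. Glutamine synthetase GLUL rose (321 ± 11.7 CPM in shRB, 248 ± 3.48 CPM in shCON, edgeR adjusted p = 0.0014), and the transcription factor gene KLF9 (90.7 ± 6.40 CPM in shRB, 126 ± 6.21 CPM in shCON, adjusted p = 0.00078) and the kinase gene SGK1 (1.11 ± 0.09 CPM in shRB, 1.87 ± 0.43 CPM in shCON, adjusted p = 0.042) fell. SGK1 had 34 counts over the shRB libraries and 74 over the shCON libraries, and is also counted among the falls of the other androgen-responsive genes.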
